A study of Saccharomyces cerevisiae with 5 samples.

Results

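The genes described are 10 regulators of the yeast stress response and of the cyclic AMP signal that restrains it: the transcription factor genes MSN2, MSN4, HSF1, GIS1, USV1 and XBP1, the protein kinase gene RIM15, and RAS2, PDE1 and PDE2 of the cyclic AMP branch. They were chosen by name and function and matched to the gene symbols of the platform annotation, which gave 1 probe set for each of the 10, out of 5656 genes with a probe set of their own. Their transcripts were measured in budding yeast (Saccharomyces cerevisiae) on 5 single-colour arrays, 2 from the wild type strain BMA64, derived from the laboratory strain W303, and 3 from a deletion of VTS1 made in BMA64. All cultures grew at 30 °C under steady state conditions in SD medium, the synthetic minimal medium with glucose, and were collected at an optical density (OD600) of 0.4. Every array, the wild type ones included, carries the same treatment entry, which names VTS1 and a chemical transfection. The title of deletion array 3 lacks the strain name that deletion arrays 1 and 2 carry, and its source label states the deletion. Separate cultures or clones are not stated in the labels, so p-values cover no more than the variation among these 5 arrays, possibly all of it technical.

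Vts1 is an RNA-binding protein that recognises mRNAs by a short hairpin and speeds their decay. Msn2 and Msn4 are zinc finger activators of the general stress genes. In cells growing well on glucose, Ras proteins stimulate adenylate cyclase, cyclic AMP releases protein kinase A from its inhibitory subunit, and the kinase keeps Msn2, Msn4 and the kinase Rim15 inactive. Phosphodiesterases break cyclic AMP down and so oppose this signal. Msn2, Msn4 and Rim15 are controlled largely after their mRNA is made, through phosphorylation and entry into the nucleus, and an expression array measures only the mRNA.

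Signals are scaled intensities in linear units, and a background level was set on each array as the 95th percentile over 28 controls for bacterial, phage or mouse sequence that yeast RNA lacks. It lay between 98 and 167 on the 5 arrays. The deleted gene checked the labels: VTS1 (YOR359W) had signals of 4952.3 and 5079.9 on wild type arrays and of 19, 17.8 and 55 on deletion arrays. Across the probe sets tested, which are not independent replicates, the log2 signals of any 2 arrays correlated at r = 0.981 or more within a strain and at 0.969 or less between strains. For actin, the 3′ over 5′ signal ratio, a sign of RNA integrity, was 1.17 to 1.34 in the wild type and 1.25 to 1.51 in the deletion strain. Of the mating type markers, the a-cell genes STE2 (4768.1 to 5451.2 on the 5 arrays) and MFA2 (49383.1 and 51981.1 in the wild type, 55946.8 to 68320.1 without VTS1, limma adjusted p = 0.197) were bright in both strains. The alpha-cell genes were dim: STE3 lay between 121.8 and 255.1, and MF(ALPHA)1 at 326.2 and 262.2 in the wild type and at 116.3, 178.5 and 108.3 without VTS1, above background on 1 of those 3 arrays and too dim to be tested.

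In the cells without VTS1, mRNA of XBP1 and of PDE1 rose, USV1 was brighter on every deletion array, and the mRNA of the other 7 regulators had no call. Calls are adjusted p-values under 0.05 from limma, fitted to all 6294 probe sets bright enough to be tested (mean signal of at least 250.3 over the 5 arrays), with the method of Benjamini and Hochberg. Of the 9 regulators tested, 2 were called higher and 0 lower (3 and 0 at an unadjusted p under 0.05), while 4.39% of all probe sets tested were called higher and 3.05% lower. XBP1 passed the brightness filter only through its deletion arrays and so could not have entered the test without a difference. In bulk RNA, a change in every cell and a change in the share of cells that make an mRNA cannot be told apart.

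**Figure D1:**
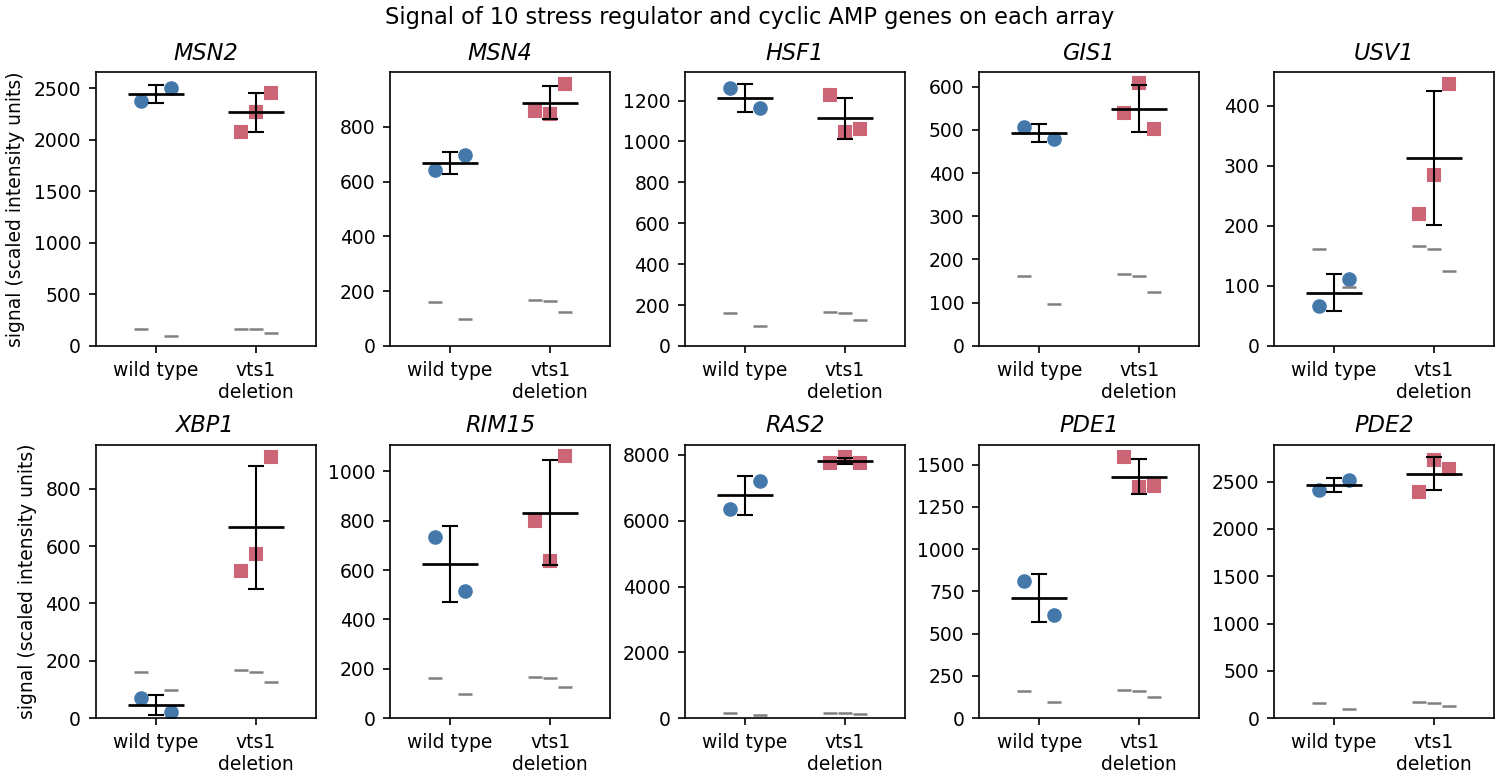
Signal (scaled intensity units, linear axis from 0) of the 10 genes on each of the 2 wild type arrays (circles) and 3 deletion arrays (squares), with the group mean (long bar), its SD (error bar) and the background level of each array (short grey lines). XBP1, USV1, PDE1, MSN4 and RAS2 have all 3 deletion arrays above both wild type arrays, as do 14.5% of all 9275 probe sets other than controls. XBP1 lies under the background level on both wild type arrays.

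XBP1 (YIL101C) encodes a transcriptional repressor that is induced by stress and starvation and related in its DNA-binding part to the cell cycle factors Swi4 and Mbp1. On the wild type arrays it gave signals of 70.1 and 20.4, below the background level of each, and on the deletion arrays 512.3, 573.3 and 909.3, above the background level of each. The groups did not overlap, and the third deletion array was the brightest. Because the wild type had no measurable level, only a bound can be given: XBP1 was at least 5.13-fold higher in the deletion strain. The bound itself was not tested, and the limma adjusted p of 7.43e-05 is that of the fitted log2 change at a floor of 50.1. The fitted log2 change depended on the floor to which dim signals were raised, with 3.44 ± 0.35 (SE, n = 3 against 2) at a floor of 50.1, 3.94 at a floor with the divisor 100 in place of 50, and 2.36 with the divisor 20.

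USV1 (YPL230W, also called NSF1) encodes a zinc finger protein of stressed cells and of growth on non-fermentable carbon. Its signal was 66.9 and 110.8 in the wild type, compared with 219.3, 285 and 437 without VTS1, and again the third deletion array was the brightest. Each deletion array was brighter than either wild type array and lay above its own background level, while only 1 of the wild type arrays was above its own. Over all 9275 probe sets other than controls, 14.5% separated upward in this way. The mean signal of USV1 was under the brightness filter, so the gene had no value in the main test. In the fit without the filter its log2 change was 1.81 ± 0.42 (SE), without a call (limma adjusted p = 0.172), where 0.582% of all probe sets were called higher. With a filter at the divisor 20 in place of 10, chosen after its values were seen, the same change had an adjusted p of 0.0370 and 3.70% of the probe sets were called higher. That call was lost when wild type replicate 1 (adjusted p = 0.153) or 2 (0.0571) or deletion replicate 2 (0.115) or 3 (0.212) was left out.

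MSN2 (YMR037C) and MSN4 (YKL062W) encode the related activators that bind the stress response element of general stress genes. MSN2 had signals of 2380.4 and 2507.1 in the wild type and of 2078.3, 2266.3 and 2453.6 in the deletion strain, and the groups overlapped. Its log2 change was -0.11 ± 0.14 (SE), with a 95% interval from -0.41 to 0.19 (limma adjusted p = 0.695), so a rise of more than 1.14-fold lay outside the interval. MSN4 had signals of 640.9 and 697.3 in the wild type and of 859.3, 846.7 and 956.4 in the deletion strain, and the groups did not overlap, which held upward for 16.8% of the probe sets tested. Its log2 change was 0.41 ± 0.18 (SE), or 1.33-fold with an interval from 1.02 to 1.73. The unadjusted p was 0.0396 and the adjusted p was 0.209, so MSN4 had no call. Under the 17 alternative settings its adjusted p lay between 0.171 and 0.435.

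HSF1 (YGL073W), the essential activator of the chaperone genes, overlapped between the strains, with signals of 1259.6 and 1162.8 in the wild type and of 1229.2, 1048.2 and 1061.3 in the deletion strain. Its log2 change was -0.12 ± 0.16 (SE, limma adjusted p = 0.708), with an interval from 0.721-fold to 1.17-fold. GIS1 (YDR096W), a zinc finger factor of genes switched on after the diauxic shift, had signals of 506.6 and 478.1 in the wild type and of 538, 607.8 and 501.2 in the deletion strain. Here 2 of the deletion arrays were the highest of the 5 and the third lay between the wild type arrays. The log2 change of GIS1 was 0.15 ± 0.21 (SE, limma adjusted p = 0.728), with an interval from 0.808-fold to 1.53-fold.

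RIM15 (YFL033C) encodes a kinase that leads cells into stationary phase and is held inactive by protein kinase A. Its signals varied more between arrays of 1 strain than those of MSN2, MSN4 or PDE2: 733 and 514.4 in the wild type, compared with 800.9, 636.4 and 1060.7 without VTS1, a coefficient of variation of 24.8% and 25.7%. The groups overlapped through wild type array 1 and deletion array 2. The log2 change of 0.41 ± 0.24 (SE) was close to that of MSN4 but had a wider interval, from 0.919-fold to 1.92-fold (limma adjusted p = 0.371). It was 0.66 without wild type replicate 1 and 0.15 without wild type replicate 2, with no call in either case.

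PDE1 (YGL248W) and PDE2 (YOR360C) encode the low-affinity and the high-affinity phosphodiesterase of cyclic AMP, which are unrelated in sequence. PDE1 had signals of 812.6 and 609.8 in the wild type and of 1547.4, 1366.9 and 1374.5 in the deletion strain. All 3 deletion arrays lay far above both wild type arrays, and they lay closer together than the wild type arrays did. The mean rose from 711.2 ± 143.4 (SD, n = 2) to 1429.6 ± 102.1 (SD, n = 3), a log2 change of 1.02 ± 0.18 (SE), or 2.03-fold with an interval from 1.55 to 2.65 (limma adjusted p = 0.00326). Of all probe sets tested, 1.87% had a larger upward change. PDE1 kept its call with each of the 5 arrays left out in turn (adjusted p from 0.00215 to 0.0323) and lost it without the brightness filter (adjusted p = 0.0915).

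PDE2 did not follow PDE1. Its signals were 2410.8 and 2518.6 in the wild type, compared with 2391.9, 2728.8 and 2634.1 without VTS1, and the lowest and the highest of the 5 were both deletion arrays. The log2 change was 0.07 ± 0.13 (SE, limma adjusted p = 0.816), with an interval from 0.858-fold to 1.28-fold. PDE2 is also the chromosomal neighbour of the deleted gene: the RefSeq gene table (assembly R64) lists no gene between VTS1 and PDE2.

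RAS2 (YNL098C), a GTP-binding activator of adenylate cyclase, was slightly brighter in the deletion strain, with signals of 6359.1 and 7199.3 in the wild type and of 7750, 7925.1 and 7754.9 in the deletion strain. The groups did not overlap, which held upward for 16.8% of the probe sets tested, and the 3 deletion arrays lay closer together than the 2 wild type arrays. The log2 change was 0.21 ± 0.12 (SE), without a call (limma adjusted p = 0.344), and its interval ran from 0.967-fold to 1.38-fold.

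**Figure D2:**
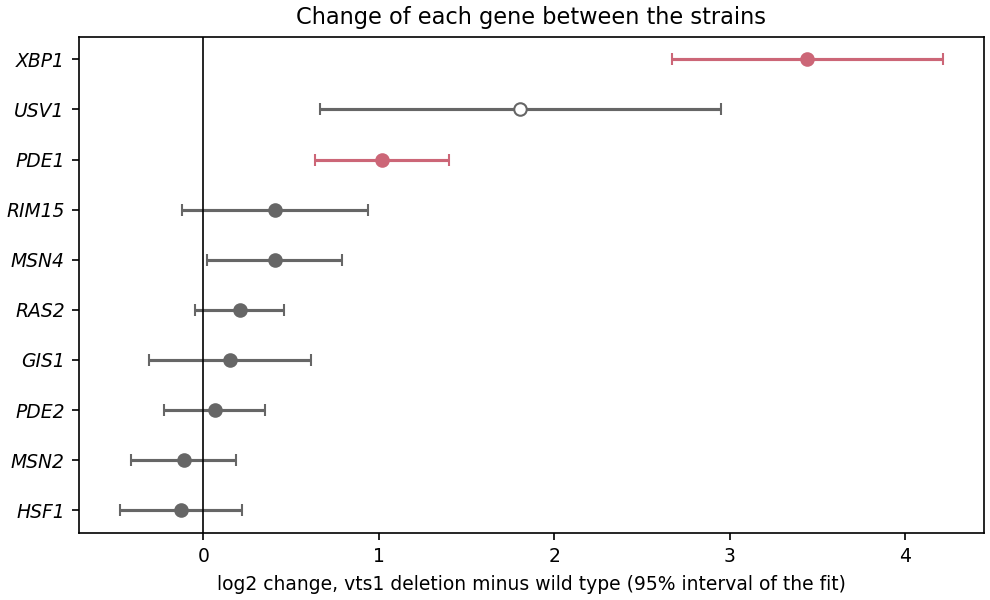
Log2 change of each of the 10 genes, deletion minus wild type, with the 95% interval of the limma fit (points and bars), sorted by size. XBP1 at 3.44 and PDE1 at 1.02 (coloured) were called; the open point is USV1, whose value of 1.81 comes from the fit without the brightness filter.

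Within each array, 4 pairs of functionally or evolutionarily related genes were set against each other to see whether their changes were unequal. The log2 difference of PDE1 minus PDE2 was -1.57 and -2.05 in the wild type, compared with -0.628, -0.997 and -0.938 without VTS1, an unequal change of 0.95. For MSN4 minus MSN2 it was -1.89 and -1.85 against -1.27, -1.42 and -1.36, an unequal change of 0.52. The unequal change was 0.39 for RAS2 against its paralog RAS1 and 0.28 for GIS1 against its paralog RPH1. In all 4 pairs the values did not overlap between the strains, and how often other gene pairs separate in this way was not tested. With 2 arrays against 3, the exact two-sided permutation test of each of the 4 differences gave p = 0.2, the smallest it can give and the same after adjustment over the 4 pairs, so none could pass 0.05. RAS1 itself had signals of 6334.4 and 6240.6 in the wild type and of 5143.4, 5622.8 and 5815.2 in the deletion strain, without a call (limma adjusted p = 0.402).

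The rest of the Ras and cyclic AMP pathway had no call. Of 14 further genes tested, limma called 0 higher and 0 lower (also 0 and 0 at an unadjusted p under 0.05), with a median log2 change of 0.08 against -0.04 over all probe sets tested. They comprise RAS1, the exchange factor gene CDC25, the GTPase activators IRA1 and IRA2, adenylate cyclase (CYR1) and its associated protein (SRV2), the glucose-sensing branch of GPR1, GPA2, RGS2, GPB1 and GPB2, and BCY1, TPK2 and TPK3 of protein kinase A. At the brightest probe set of each gene, log2 changes ran from -0.36 for TPK3 to 0.37 for IRA1. A dimmer probe set of IRA2 was at -0.57, also without a call. SDC25 was too dim to be tested. BCY1, the inhibitory subunit, had signals of 6036.1 and 5857.5 in the wild type and of 7346.9, 6110.2 and 6586.7 in the deletion strain (limma adjusted p = 0.493). PDE1 was thus the one called gene among the cyclic AMP genes tested, RAS2 and PDE2 included. With 4.39% of all probe sets called higher and 3.05% lower, neither this nor the 0 of 14 is a result about the pathway.

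Among 13 kinases and partners around Rim15 (the TOR, Sch9, Pho85, Snf1 and Igo branches), 1 rose and none fell (1 and 1 at an unadjusted p under 0.05), with a median log2 change of -0.10. With 4.39% of all probe sets called higher, 1 of 13 is not a result about these genes. The one was YAK1, a kinase that counteracts protein kinase A, with signals of 1380 and 1554.6 against 1937, 2171.7 and 2291.3 and a log2 change of 0.54 ± 0.15 (SE, limma adjusted p = 0.0431). Its other 2 probe sets gave 0.26 and 0.40 without a call, and the call ended with any 1 array left out except deletion replicate 1. That call also ended without the filter, without a variance trend and with the replicate block. Of 9 modulators of Msn2 and Msn4, such as 14-3-3 proteins, phosphatases and the exporter Msn5, 2 rose and none fell (4 and 0 at an unadjusted p under 0.05). Their median was 0.20, and of all probe sets 4.39% were called higher and 3.05% lower. The 2 that rose were WHI2 and the phosphatase gene PSR2, whose products act together with Psr1 in full activation of the stress response. WHI2 rose from 2249.1 and 2676.7 to 3398.3, 3701.1 and 4213.8 (log2 change 0.61 ± 0.14, limma adjusted p = 0.0214) and PSR2 from 1803.6 and 2148.9 to 2862.6, 3279.4 and 3198.7 (0.66 ± 0.14, limma adjusted p = 0.0121). Both calls ended when wild type replicate 1 or deletion replicate 2 or 3 was left out. They also ended without the filter, without a variance trend and with the replicate block. PSR1 had no call, with a log2 change of -0.27 (limma adjusted p = 0.523).

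Of 22 other stress-related and developmental transcription factors, 20 were tested, of which 1 rose and 2 fell (3 and 6 at an unadjusted p under 0.05), with a median log2 change of -0.14. The 1 of 20 is near the 4.39% of all probe sets that were called higher, and 3.05% were called lower. CIN5, a factor of the Yap family that takes part in salt and drug tolerance, rose from 1846 and 1734.7 to 3478.6, 3419.5 and 3157.5 (log2 change 0.90 ± 0.13, limma adjusted p = 0.000845). HMS2, a factor related in sequence to heat shock factors, fell from 4093.1 and 4208.5 to 1975, 2276.2 and 2131.1 (log2 change -0.97 ± 0.13, limma adjusted p = 0.000504). RPN4, the activator of proteasome genes, had a log2 change of -0.51 ± 0.14 (limma adjusted p = 0.0460). Its call ended under 9 of the 17 alternatives, among them any 1 array left out except deletion replicate 1. The calls of CIN5 and HMS2 held with each array left out.

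**Figure D3:**
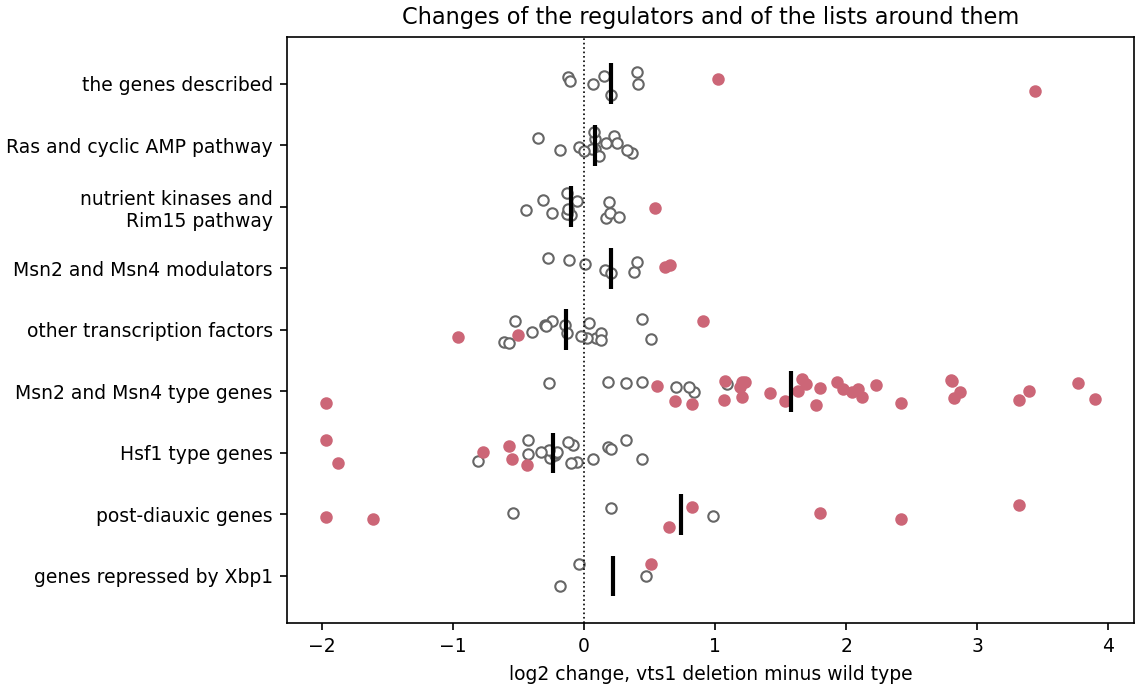
Log2 change (deletion minus wild type) of each tested gene in the set of regulators described and in 8 gene lists around them. Filled points passed an adjusted p of 0.05, open points did not, and black bars are medians, which run from -0.24 for the Hsf1 type genes to 1.58 for the Msn2 and Msn4 type genes.

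The genes downstream of these factors were counted in lists written from textbook knowledge with earlier results of these data known, so the counts are no independent evidence of a direction. Of 41 Msn2 and Msn4 type stress genes, 40 were tested, of which 31 rose and 1 fell, with a median log2 change of 1.58 (also 1.58 with the 2 genes under background in the wild type at their bounds). For 5 of the 31 (ALD3, CTT1, CYC7, GPH1 and RTN2) the wild type mean was under the brightness filter, so they could be counted only because they were high in the deletion strain. Of the other 35, 26 rose and 1 fell, with a median of 1.42, beside 4.39% and 3.05% of all probe sets. HSP12, a small stress protein of membranes, rose from 6874.8 and 5680.1 to 60470.5, 62829.5 and 63627.9 (log2 change 3.32 ± 0.12, limma adjusted p = 4.19e-09). SOL4, whose product is a 6-phosphogluconolactonase, rose by 3.90 ± 0.20, HXK1, a hexokinase, by 2.81 ± 0.13, and YGP1, a secreted glycoprotein, by 2.80 ± 0.12 (limma adjusted p = 1.17e-07, 4.79e-08 and 1.82e-08). The number that rose lay between 28 and 31 with 1 array left out.

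The Hsf1 type genes, mostly chaperones and co-chaperones, moved the other way in part. Of 24, limma called 0 higher and 6 lower (1 and 9 at an unadjusted p under 0.05), beside 4.39% and 3.05% of all probe sets. Their median log2 change was -0.24, against -0.04 over all probe sets tested. The log2 changes were -1.97 ± 0.22 for HSP26, a small heat shock protein, -1.88 ± 0.22 for BTN2, which sorts misfolded proteins, -0.77 ± 0.15 for MDJ1, a mitochondrial co-chaperone, and -0.55 ± 0.12 for FES1, a nucleotide exchange factor (limma adjusted p = 0.000136, 0.000192, 0.00639 and 0.0108). The 6 became 3 when wild type replicate 2 or deletion replicate 2 or 3 was left out, and FES1 was among those lost each time. The lists share 5 genes, 12.2% of the Msn2 and Msn4 list and 20.8% of the Hsf1 list. Of these, HSP26 fell and HSP42, HSP78, HSP104 and SSA4 had no call. Among the 35 tested genes only in the Msn2 and Msn4 list, 31 rose and 0 fell (35 and 0 at an unadjusted p under 0.05; 26 of 30 rose without ALD3, CTT1, CYC7, GPH1 and RTN2), and among the 19 only in the Hsf1 list, 0 rose and 5 fell (0 and 8).

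Of 14 genes of the post-diauxic and stationary phase programme, in which Gis1 and Rim15 act, 10 were tested, of which 5 rose and 2 fell, with a median of 0.74, beside 4.39% and 3.05% of all probe sets. All of the 5 that rose but SOD2, and HSP26 among the 2 that fell, are also in the Msn2 and Msn4 list. For 2 of the 10 tested, CTT1 and GRE1, the wild type mean was under the brightness filter, so they entered only through the deletion arrays. Of the other 8, 4 rose and 2 fell, with a median of 0.43. The 5 that rose of all 10 became 3 with the replicate block and 2 without the filter. SPI1, a cell wall protein, rose from 2584.6 and 1642.5 to 6375.4, 6938.3 and 8360.7 (log2 change 1.80 ± 0.18, limma adjusted p = 7.43e-05). CTT1, cytosolic catalase, lay under background on both wild type arrays and was at least 4.70-fold higher in the deletion strain. Its limma adjusted p of 0.00136 is that of the fitted log2 change of 2.42, not of this bound. Like XBP1, CTT1 passed the brightness filter only through its deletion arrays, and its call ended without the filter (adjusted p = 0.126) and with the replicate number as a block (0.0560). The 2 that fell, HSP26 and SSA3, both encode heat shock proteins. Of 4 genes known to be repressed by Xbp1 (CLN1, CLN3, CYS3 and SMF2), none fell and 1 rose, beside 3.05% and 4.39% of all probe sets. At an unadjusted p under 0.05, 0 fell and 2 rose. The called gene was SMF2, a metal transporter, with signals of 2884.4 and 2628.5 against 4024.2, 4182.9 and 3595.1 and a log2 change of 0.51 ± 0.13 (limma adjusted p = 0.0336). That call ended under 7 of the 17 alternatives, among them any 1 array left out except wild type replicate 1. The cyclin gene CLN1 had a log2 change of 0.47 (limma adjusted p = 0.0576).

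The genes whose pattern over the 5 arrays was most like that of PDE1 were found by the root mean square difference of log2 signals, each centred on its own mean. This is a description over 5 arrays and 5383 other single-gene probe sets, and any gene with a change of like size between the strains comes close. PDE1 was nearest to RIE1 (0.055), SMN1 (0.062) and CDC13 (0.074), the last a telomere-binding protein, and the same 3 genes came out with the floor divisors 100 and 20. Like PDE1, these were dimmer on wild type array 2 than on wild type array 1 and had their brightest signal on deletion array 1. Such a likeness follows from choosing them by pattern and is no separate result. For XBP1 the nearest genes depended on the floor that set its wild type values, with none of the 3 shared between the divisors 50 and 20, so none is named.

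**Figure D4:**
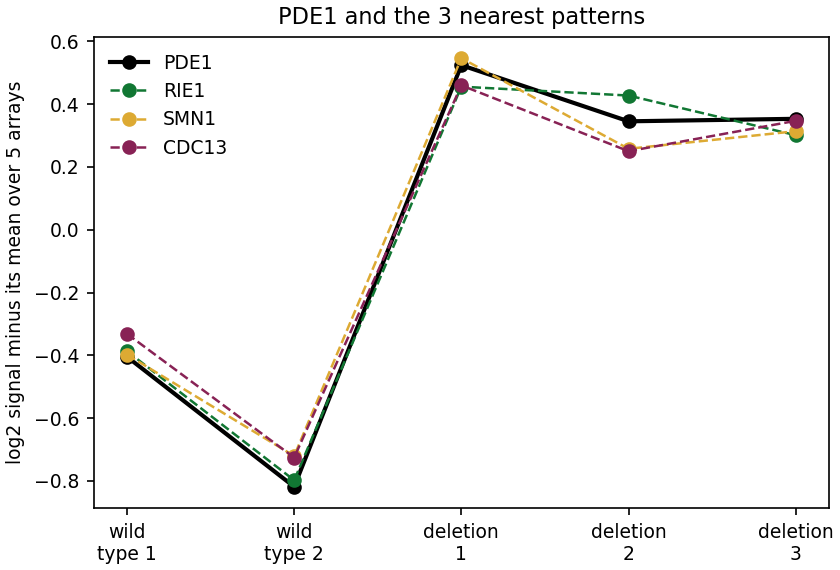
Log2 signal minus its mean over the 5 arrays for PDE1 (solid line) and for the 3 genes with the nearest pattern, RIE1, SMN1 and CDC13 (dashed lines). The lines join the values of 1 gene and give the arrays no order; PDE1 has a log2 change of 1.02 between the strains.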

How the data were processed

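Total RNA labelled with biotin was hybridised to 5 Affymetrix arrays. The authors' deposited values are signal intensities on a linear scale, 1 per probe set. The submitters' processing notes name MAS5, with no version or scaling target. The values had been scaled per array before deposit (the mean after trimming 2% at each end was about 2503 on every array) and were used as deposited, so an overall change in mRNA content is invisible.

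Of 9335 probe sets, 60 controls were left out. Signals under 50.1 (trimmed mean / 50) were raised to that value before log2 was taken. The 6294 probe sets averaging 250.3 or more (trimmed mean / 10) were tested with limma 3.58.1 in R 4.3.3 (lmFit, eBayes with a variance trend, group as the only term; 3 residual and 9.02 prior degrees of freedom), two-sided. The number of arrays limits the precision. An "at least" fold sets the mean log2 signal of the bright group against the mean, over the dim arrays, of log2 of the higher of background and signal. A list used the brightest single-gene probe set of each gene. In 20 simulations of this comparison (6294 probe sets, 200 changed), 28.6% of 1.5-fold, 73.9% of 2-fold and 97.2% of 4-fold changes were called. The simulated noise was normal, with variances drawn from the fitted limma prior and no floor. These shares therefore hold for data that meet the model and not for genes near the floor such as XBP1.

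The regulators, lists and tests were chosen with earlier results of these data known. Genes named are VTS1, the regulators, up to 4 called genes of smallest p per list and the 3 nearest patterns of PDE1 (those of the other called regulator depended on the floor). Other genes given with values (STE2, STE3, MFA2, MF(ALPHA)1, RAS1, BCY1, TPK3, IRA1, PSR1, SSA3 and CLN1 among them) fall outside that rule, some chosen after their values were seen. Alternatives covered normalization, floor, filter, variance model, array weights, each array left out and a replicate block.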

Additional observations from a re-analysis of the deposited data

How the results depend on the processing

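All 10 regulators kept the sign of their log2 change under every alternative run. The 7 without a call had none under any of 17 alternatives. XBP1 kept its call under all 16 alternatives in which it was tested (adjusted p = 0.04998 without the filter on dim probe sets; log2 change 3.19 to 3.69 with 1 array left out), and it was not tested under the stricter filter. In all of these but the fit without the filter, XBP1 entered the test only through its deletion arrays, so they share that selection. PDE1 kept its call under 16 of 17 (log2 change 0.81 to 1.23 with 1 array left out, 1.05 with a replicate block, adjusted p = 0.0239) and lost it without the filter (log2 change 1.02), where the prior degrees of freedom fell from 9.02 to 1.09. USV1, at 1.81 without the filter, was called with the looser filter chosen after seeing the data (1.81), and there lay between 1.44 and 2.17 with 1 array left out (called at 2.04 without deletion replicate 1).

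The 276 probe sets called higher and 192 lower became 54 and 51 without the filter and 149 and 69 with a replicate block, and 106 were lower without a variance trend. With 1 array left out they ranged from 175 to 318 and from 95 to 165. The 31 Msn2 and Msn4 type genes that rose became 11 without the filter and 28 to 31 with 1 array left out. The 6 Hsf1 type genes that fell became 1 without the filter, 3 without a variance trend, 3 with the block and 3 to 5 with 1 array left out. Why these counts changed was not tested. Only deletion array 3 has the replicate number 3, so the block gave the same log2 changes as leaving that array out (XBP1 3.19, PDE1 1.05). Same-numbered arrays are known to share only a number, and their deviations from the group means correlated at -0.066 and -0.074 (across 6294 probe sets). With 2 wild type arrays the deviations mirror each other, so these values cannot tell whether arrays were paired. Signals near the background level limit what can be said of XBP1 and USV1.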
